A study of Mus musculus with 9 samples.

Results

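The 6 genes described here are the Robo receptors Robo1, Robo2 and Robo3 and the Slit ligands Slit1, Slit2 and Slit3 of the mouse, chosen by symbol from a table of 55291 genes. They were measured by RNA sequencing in olfactory sensory neurons, the odour-detecting nerve cells of the nose, each of which makes a single odorant receptor. Neurons came from mice in which a receptor gene carries a fluorescent reporter behind an internal ribosome entry site: Olfr73-IRES-GFP, Olfr1507-IRES-GFP and Olfr160-IRES-mCherry, with 3 libraries each. Dissociated main olfactory epithelium was sorted for high reporter fluorescence and low DAPI, a dye that enters dead cells. The age, sex and number of mice are not given in the sources used here, and neither is whether libraries of a group came from separate mice, so p-values measure the spread between these libraries, which may be technical. Duplicates are named in the series' design text, but the labels list 3 libraries for each group and all were used. The reporter of the Olfr160 group differs from that of the others, so reporter and receptor cannot be told apart in any comparison with it.

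Slit proteins are large secreted ligands that turn growing axons away, and Robo proteins are the transmembrane receptors on those axons that bind them. In the olfactory system, axons of neurons from the dorsal part of the epithelium carry Robo2 and are known to need it, with Slit1 and Slit3, to reach the dorsal olfactory bulb. As background, Olfr73 and Olfr160 are expressed in the dorsal epithelium and Olfr1507 in the ventral epithelium; the labels do not give the zone.

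The genes lie on 5 chromosomes of the mm10 build, in GENCODE M21 coordinates. Robo1 (chr16:72308306-73046095, plus strand) and Robo2 (chr16:73891839-74411825, minus strand) are neighbours that point towards each other, 845744 bp apart. Robo3 lies at chr9:37415669-37433246 on the minus strand, Slit1 at chr19:41600257-41743665 on the minus strand, Slit2 at chr5:47983138-48307733 on the plus strand and Slit3 at chr11:35121224-35708507 on the plus strand. The longest annotated transcripts range from 5000 nt with 26 exons (Robo3) to 9960 nt with 36 exons (Slit2). No exon of any of the 6 overlaps an exon of another gene.

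Robo2 and Slit2 were lower in Olfr1507 than in Olfr160 neurons and Robo1 is the neighbour of Robo2, and for these 3 genes the 250 bases just upstream of a RefSeq start site (GRCm38.p6) are shown 5′ to 3′ on the gene's strand. Promoter entries were found for 5 of the 6 genes, and Slit1 had none. The RefSeq start of Robo1 lies 354843 bp inside the GENCODE gene, not at its first base. Capitals mark CCCNNGGG, the core letters bound by the Ebf factors of olfactory neurons. It was searched on both strands, and a match is only a match of letters.
Robo2 (chr16:74411826-74412075, minus strand): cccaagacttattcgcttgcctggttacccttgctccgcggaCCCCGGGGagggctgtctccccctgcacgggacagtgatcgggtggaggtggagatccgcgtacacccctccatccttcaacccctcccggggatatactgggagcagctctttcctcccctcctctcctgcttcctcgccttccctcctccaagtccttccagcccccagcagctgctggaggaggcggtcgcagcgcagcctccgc
Robo1 (chr16:72662899-72663148, plus strand): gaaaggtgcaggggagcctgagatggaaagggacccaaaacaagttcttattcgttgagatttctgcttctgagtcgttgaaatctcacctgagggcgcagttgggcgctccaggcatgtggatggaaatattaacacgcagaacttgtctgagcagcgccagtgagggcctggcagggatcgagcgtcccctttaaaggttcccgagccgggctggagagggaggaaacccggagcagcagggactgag
Slit2 (chr5:47982905-47983154, plus strand): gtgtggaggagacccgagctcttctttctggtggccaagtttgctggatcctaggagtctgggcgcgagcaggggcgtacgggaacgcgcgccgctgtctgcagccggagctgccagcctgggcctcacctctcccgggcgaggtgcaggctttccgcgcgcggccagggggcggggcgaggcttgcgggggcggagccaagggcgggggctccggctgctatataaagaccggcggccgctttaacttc

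The Robo2 window shown held 1 CCCNNGGG match, those of Robo1 and Slit2 held 0, and 11.8% of 32851 windows of the same length held at least 1. Windows of Robo3 and Slit3 held 1 match each. The Slit2 window had 25 CpG pairs and a TATAAA box (found in 12.4% of windows on either strand). The Robo2 window shown had 14 CpG pairs and that of Robo1 had 11, against a median of 6 over all windows. RefSeq also lists starts of Robo2 farther upstream, whose windows held 0 CCCNNGGG matches and 4 and 8 CpG pairs. The farthest of these starts lies 1035468 bp before the GENCODE start. It coincides with the start of a non-coding gene, Gm49678, that had 0 counts in all 9 libraries, which allows at most 0.099 to 0.167 CPM per library by counting error alone (3 counts).

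Depth was 17212807 to 36230606 expected counts per library, and 16399 genes entered the tests. Levels are given as CPM, expected counts per 1000000 after TMM scaling between libraries, where one gene is compared across libraries. They are given as TPM, transcripts per 1000000, which divides by length, where genes are compared with each other. The reporter-tagged receptor made up 22.8% to 32.8% of all odorant receptor counts in the Olfr73 libraries, 85.1% to 94.7% in the Olfr1507 libraries and 2.08%, 4.54% and 10.1% in Olfr160 libraries 1, 2 and 3. Most odorant receptor message in the Olfr73 and Olfr160 libraries thus came from other receptors. Below, the neurons of a group are the cells sorted by its reporter, whichever receptor they made. Mature-neuron genes (18 genes of olfactory transduction, such as Omp) were all detected in every library and held 6.27% to 6.39%, 9.33% to 9.53% and 3.47% to 5.49% of counts in the Olfr73, Olfr1507 and Olfr160 libraries. In such sorted bulk samples fewer cells of a type and less RNA per cell cannot be told apart.

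Robo2, the receptor of the dorsal projection, was the most abundant of the 6 genes in Olfr73 and Olfr160 neurons and was low in Olfr1507 neurons. Its level in Olfr73 libraries 1, 2 and 3 was 693, 789 and 752 CPM. In the Olfr160 libraries it was 153, 232 and 314 CPM. In the Olfr1507 libraries it was 8.85, 17.9 and 7.82 CPM. The 3 groups were fully separated, in the order Olfr73, Olfr160, Olfr1507, and the spread among the Olfr160 libraries was wide. Group means were 745 ± 48.2, 233 ± 80.7 and 11.5 ± 5.54 CPM (SD, n = 3). Set among all genes above 0 TPM in a library, Robo2 stood at percentile 97.7 to 98.1 in Olfr73 neurons, 89.9 to 94.4 in Olfr160 neurons and 42.1 to 57.4 in Olfr1507 neurons.

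Each pair of groups differed in Robo2 by edgeR's quasi-likelihood test with Benjamini-Hochberg adjustment over all tested genes. Olfr1507 against Olfr73 gave -6.00 on the log2 scale (SE 0.40, edgeR adjusted p = 2.43e-05), and Olfr1507 against Olfr160 gave -4.32 (SE 0.37, edgeR adjusted p = 3.6e-05). Olfr73 against Olfr160 gave a smaller difference, 1.68 (SE 0.32, edgeR adjusted p = 0.0102). Leaving out any 1 library kept all 3 calls, with an adjusted p of up to 0.0484 for Olfr73 against Olfr160, and relative to the transduction genes that difference was 1.08 (edgeR adjusted p = 0.0137). Within the Olfr160 group the library with the least tagged receptor, library 1, had the least Robo2, and library 3 had the most of both. The Olfr1507 group ran the other way: library 2, with the least tagged receptor (85.1%), had the most Robo2 (17.9 CPM). That library also had the most Nqo1 (7.76 CPM) and Acsm4 (9.18 CPM) of its group, both dorsal markers. In the Olfr73 group library 1 had the least of both, library 2 the most Robo2 and library 3 the most tagged receptor. The part of sort purity in the Robo2 level was not tested. Scaled to Omp, a marker of mature olfactory neurons, in the same library, Robo2 was 22.2, 21.5 and 21.7 TPM per 1000 Omp TPM in Olfr73 libraries, 9.25, 9.49 and 11.1 in Olfr160 libraries and 0.136, 0.376 and 0.157 in Olfr1507 libraries. On that scale the Olfr160 libraries were close together and the 3 groups were separated as before.

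**Figure D1:**
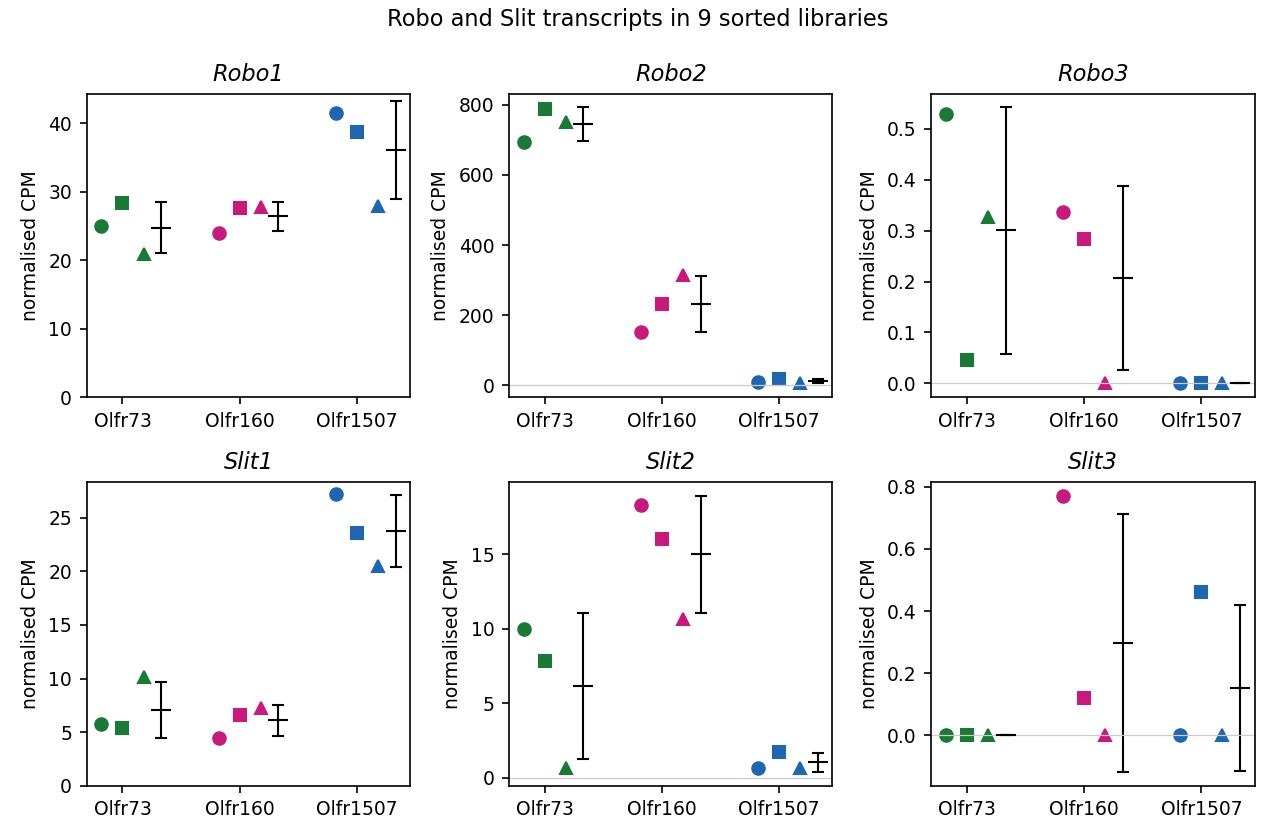
Normalised CPM (linear axis, separate scale per gene) of the 6 genes in 9 libraries, grouped by tagged receptor; circles, squares and triangles are libraries 1, 2 and 3, and bars give the group mean and SD (n = 3). Robo2 falls from 693 to 789 CPM in Olfr73 neurons to 7.82 to 17.9 CPM in Olfr1507 neurons, Slit1 is highest in the Olfr1507 group, and Robo3 and Slit3 stay below 1 CPM.

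The 3 short gene models of uncertain status inside the Robo2 span, on its strand, were at 0 in the Olfr1507 libraries. Gm49658 had 57, 68 and 37 counts in Olfr73 libraries, 19, 7 and 10 in Olfr160 libraries and 0 in each Olfr1507 library. Gm49659 had 24, 16 and 66, then 14, 20 and 6, and again 0 in each Olfr1507 library. Gm49660 had 0, 0 and 33 counts in Olfr73 libraries and 5, 8 and 6 in Olfr160 libraries, so it was also at 0 where Robo2 was high. On the opposite strand within the span, the processed pseudogene Gm18021 had 8, 2 and 8 counts in Olfr73 libraries. It had 7, 1 and 2 in Olfr160 libraries and 0 in each Olfr1507 library. The nearest tested gene beyond the upstream starts, Rbm11, an RNA-binding protein gene at chr16:75592844-75602829, was highest in Olfr160 neurons at 15.2 CPM, against 8.43 in Olfr73 and 5.51 in Olfr1507 neurons.

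Robo1, the other widely expressed Slit receptor, varied little. It measured 25.01, 28.4 and 20.9 CPM in Olfr73 libraries, 24.0, 27.6 and 27.8 in Olfr160 libraries, and 41.5, 38.8 and 27.9 in Olfr1507 libraries. The Olfr1507 libraries were all above the Olfr160 libraries, narrowly so for library 3, and overlapped the Olfr73 libraries. Olfr1507 against Olfr160 did not pass the test (log2 fold change 0.45, SE 0.18, edgeR adjusted p = 0.067), nor did Olfr73 against Olfr160 (-0.09, SE 0.18, edgeR adjusted p = 0.757). Olfr1507 against Olfr73 passed narrowly (0.54, SE 0.18, edgeR adjusted p = 0.0455), but not when any of 7 of the 9 libraries was left out (0.0508 to 0.154; the exceptions were Olfr73 library 2 and Olfr1507 library 3). The direction for Robo1 depended on scale: relative to the transduction genes it was lower in Olfr1507 neurons than in Olfr160 (-1.11, edgeR adjusted p = 0.00174) and Olfr73 neurons (-0.35, adjusted p = 0.215). In TPM the values were 6.44, 9.15 and 5.55, then 10.9, 8.44 and 8.82, then 9.94, 9.10 and 6.89 in Olfr73, Olfr160 and Olfr1507 libraries. In Olfr160 library 1 the mean transcript length implied by counts over TPM was 4062 nt, against 5566 to 7115 nt for Robo1 in the other 8 libraries.

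Robo3, a receptor known for axons that cross the midline, was at the edge of detection and was not tested. It had 12, 1 and 7 counts in Olfr73 libraries, 7, 7 and 0 in Olfr160 libraries and 0 in all 3 Olfr1507 libraries. Summed over a group, its level was 0.305 CPM in Olfr73 neurons (95% exact Poisson interval 0.186 to 0.471) and 0.206 CPM in Olfr160 neurons (0.113 to 0.345), and the 0 counts in Olfr1507 neurons allow up to 0.0553 CPM. With no filter on low counts the edgeR adjusted p was 0.0762 and 0.0768 for these comparisons.

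Robo2 accounted for nearly all Robo message in Olfr73 neurons: 98.0%, 97.5% and 98.3% of the summed TPM of Robo1, Robo2 and Robo3. In the Olfr160 libraries its share was 86.4%, 92.1% and 94.3%. In the Olfr1507 libraries it was 22.9%, 43.8% and 32.1%, so that Robo1 exceeded Robo2 in each of them. A share within a library does not depend on how libraries are scaled, and the 3 groups did not overlap. The mean share differed by -65.0 percentage points for Olfr1507 minus Olfr73, by -58.1 for Olfr1507 minus Olfr160 and by 6.96 for Olfr73 minus Olfr160. The two-sided exact permutation test gave p = 0.1 for each pair (0.1 after adjustment over the 3 pairs), the smallest that 3 libraries against 3 allow.

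**Figure D2:**
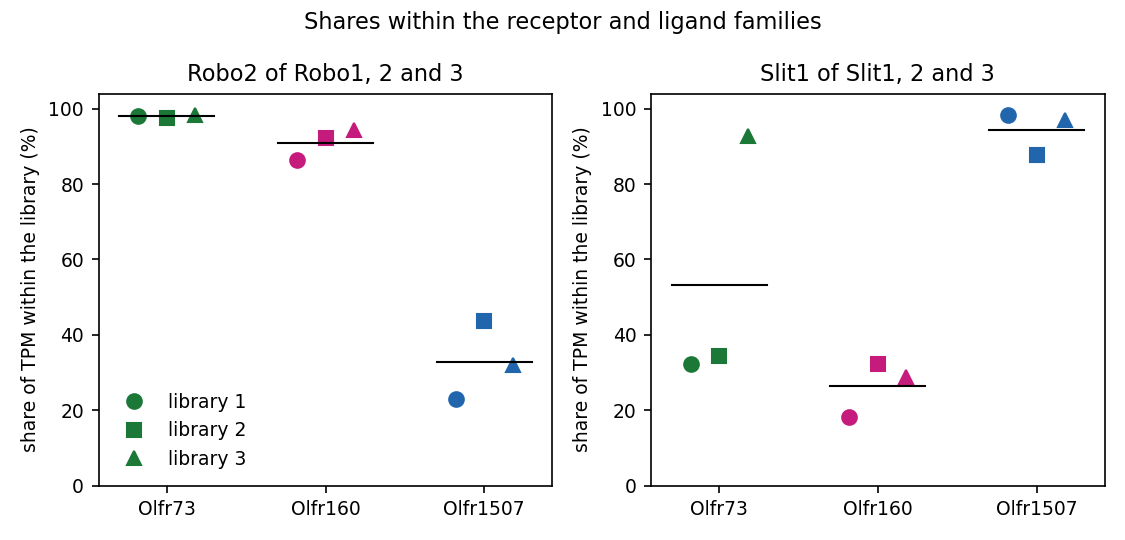
Share of summed TPM (percent, linear axis from 0) taken by Robo2 among Robo1 to Robo3, left, and by Slit1 among Slit1 to Slit3, right, in each library; horizontal lines are group means (n = 3). Robo2 holds 97.5% to 98.3% in Olfr73 and 22.9% to 43.8% in Olfr1507 libraries; Olfr73 library 3 stands apart in the Slit panel at 92.9%.

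Slit1, a ligand that turns Robo2-bearing axons away, was highest in Olfr1507 neurons. It measured 27.2, 23.6 and 20.5 CPM in Olfr1507 libraries, 5.77, 5.38 and 10.1 in Olfr73 libraries and 4.43, 6.59 and 7.25 in Olfr160 libraries. Every Olfr1507 library lay above every other library, and the Olfr73 and Olfr160 libraries overlapped. The log2 fold change was 1.96 (SE 0.30, edgeR adjusted p = 0.000789) over Olfr160 and 1.74 (SE 0.30, edgeR adjusted p = 0.00253) over Olfr73. Relative to the transduction genes, which were themselves higher in Olfr1507 libraries, the difference from Olfr160 was 0.45 (edgeR adjusted p = 0.2) and that from Olfr73 was 0.86 (edgeR adjusted p = 0.0407). Olfr73 and Olfr160 did not differ beyond the spread in Slit1 (0.22, SE 0.29, edgeR adjusted p = 0.639; -0.13 without Olfr73 library 3 and -0.41 relative to the transduction genes).

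Slit2, the best-studied repellent of the family, went the other way and was highest in Olfr160 neurons. It measured 18.3, 16.1 and 10.6 CPM in Olfr160 libraries, 9.995, 7.87 and 0.652 in Olfr73 libraries and 0.648, 1.75 and 0.67 in Olfr1507 libraries. The Olfr160 libraries were above all others, while Olfr73 library 3, with 14 counts against 227 and 168 in its companions, fell among the Olfr1507 libraries. Olfr1507 against Olfr160 gave -3.83 (SE 0.86, edgeR adjusted p = 0.00567; -2.24 on log2(TPM + 1)). Olfr1507 against Olfr73 gave -2.55 (SE 0.82, edgeR adjusted p = 0.0388), and it no longer passed when any of 7 of the 9 libraries was left out (adjusted p 0.051 to 0.125). Without Olfr73 library 3 it was -3.07 (edgeR adjusted p = 0.00193), and without Olfr1507 library 2 it was -3.21 (adjusted p = 0.0482). Olfr73 against Olfr160 did not pass (-1.28, SE 0.76, edgeR adjusted p = 0.27), although the libraries did not overlap.

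Message of several other cell types was, like Slit2, highest in the Olfr160 libraries. The 10 sustentacular and gland cell markers held 1.52% to 2.96% of counts in Olfr160 libraries, 0.289% to 0.496% in Olfr73 libraries and 0.0215% to 0.0324% in Olfr1507 libraries. In Olfr1507 against Olfr160, 10 of 10 were lower (27.7% of all tested genes), and in Olfr1507 against Olfr73, 9 of 10 were lower (19.9% of all tested genes). None of the 10 was at 0 in any library except Sox9 in Olfr1507 library 1. Olfr73 library 3, low in Slit2, held 0.289%, the least of its group. Its Slit2 level fell among those of the Olfr1507 libraries, but that share was above their 0.0215% to 0.0324%. Its immune marker share, 0.0019%, was the highest of its group. In the Olfr160 group vessel markers were lowest in library 1, at 0.0351%, where Slit2 was highest. Stroma markers there fell as Slit2 did, at 0.0405%, 0.0353% and 0.0184% in libraries 1, 2 and 3. The 8 stroma markers held 0.0184% to 0.0405%, 0.00441% to 0.00932% and 0.000314% to 0.000491% of counts in Olfr160, Olfr73 and Olfr1507 libraries. In the same order, the 8 vessel markers held 0.0351% to 0.0706%, 0.00792% to 0.0267% and 0.00121% to 0.00187%. Defining genes of these lists were at 0 in Olfr1507 libraries: Pdgfra, Col1a2 and Col3a1 in libraries 1 and 3, and Cldn5 in all 3 and in Olfr73 libraries 1 and 3. Basal, immature neuron, ensheathing glia and immune lists had the same order of Olfr160, Olfr73 and Olfr1507 libraries, without overlap, while red blood cell markers overlapped between Olfr73 and Olfr1507 libraries. Basal and progenitor markers held 0.0282% to 0.0551%, 0.00525% to 0.00917% and 0.000296% to 0.000591% of counts. Of these, 8 of 8 tested were lower in Olfr1507 than in Olfr160 neurons, against 27.7% of all tested genes. Immature neuron markers held 0.214% to 0.23%, 0.129% to 0.159% and 0.0866% to 0.089%. In that comparison 5 of 10 were lower and 2 higher, against 27.7% and 20.7% of all tested genes. Lower there too were 6 of 6 ensheathing glia, 9 of 9 immune and 5 of 5 red blood cell markers tested (27.7% of all tested genes). Csf1r, Cd79a and Sox10 were at 0 in each Olfr1507 library. Of the red blood cell markers, 0 of 5 were called in Olfr1507 against Olfr73, where 34.4% of all tested genes were called. Respiratory epithelium markers kept the order Olfr160, Olfr73, Olfr1507, at 0.0416% to 0.105%, 0.0369% to 0.041% and 0.0257% to 0.0284%. Yet in Olfr1507, 3 of 7 tested were higher and 3 lower against Olfr160, and 2 higher and 3 lower against Olfr73. Against Olfr160, 6 of 6 stroma and 5 of 6 vessel markers were lower, and of 7 microvillar markers 1 was higher and 5 lower. Shares of all tested genes were 20.7% higher and 27.7% lower against Olfr160, and 14.5% and 19.9% against Olfr73. That order was not kept by every list. Microvillar and brush cell markers held 0.0109% to 0.019% of counts in Olfr160 libraries, 0.0028% to 0.00527% in Olfr73 and 0.0047% to 0.00635% in Olfr1507. Vomeronasal and necklace neuron markers overlapped between Olfr73 (0.0113% to 0.0172%) and Olfr1507 libraries (0.0124% to 0.0168%). Within the Olfr160 group the stroma, basal and microvillar lists fell from library 1 to 3 as Slit2 did. Respiratory markers did not, and the other lists of this paragraph were highest in library 2. Among Olfr73 libraries the sustentacular, vessel, basal, microvillar, ensheathing glia and red blood cell lists fell as Slit2 did. Immature neuron, respiratory, stroma, immune and vomeronasal lists did not. The part of these cells in the Slit2 level was not tested.

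**Figure D3:**
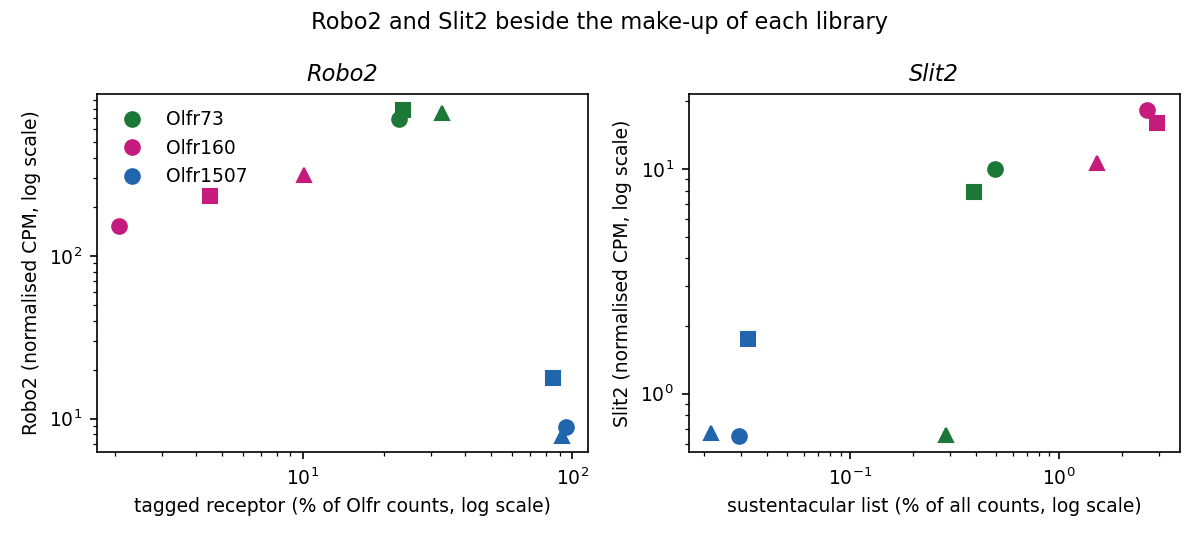
Left, Robo2 CPM against the share of odorant receptor counts that came from the tagged receptor; right, Slit2 CPM against the share of all counts held by 10 sustentacular and gland cell markers; both axes of both panels are logarithmic, and each point is 1 library (circle, square and triangle for libraries 1, 2 and 3). Slit2 is high in the Olfr160 libraries, where that list holds 1.52% to 2.96%, and Olfr73 library 3 lies below its companions at 0.289%.

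Slit3, the ligand known with Slit1 from the ventral olfactory bulb, was near the limit of detection in neurons of the nose. It had 0 counts in all Olfr73 libraries, 16, 3 and 0 in Olfr160 libraries and 0, 14 and 0 in Olfr1507 libraries. Most of its Olfr160 counts came from library 1 and all of its Olfr1507 counts from library 2, and no fold is given. The 0 counts in Olfr73 neurons allow up to 0.0563 CPM (exact Poisson, 95%), and with no filter on low counts the edgeR adjusted p against Olfr73 was 0.184 for Olfr160 and 0.202 for Olfr1507.

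Slit1 took 98.3%, 87.8% and 97% of summed Slit TPM in Olfr1507 libraries and 18.2%, 32.3% and 29.0% in Olfr160 libraries. In Olfr73 libraries 1, 2 and 3 its share was 32.3%, 34.4% and 92.9%. So the leading ligand was Slit1 in each Olfr1507 library and Slit2 in each Olfr160 library, and it changed between libraries within the Olfr73 group. In TPM, Slit1 in Olfr1507 libraries was 7.71, 6.38 and 5.50, and Slit2 in Olfr160 libraries was 6.02, 4.24 and 5.62. These levels were far below those of Robo2 in Olfr73 libraries, at 329, 355 and 336 TPM.

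Counted together, 4 of the 6 genes passed the filter on low counts. In Olfr1507 against Olfr160, 1 was higher, 2 were lower and 1 was not called, where 48.4% of all tested genes were called, 20.7% higher and 27.7% lower; the libraries of the 4 did not overlap, as for 65.8% of all tested genes. In Olfr1507 against Olfr73, 2 were higher and 2 lower against 34.4% of all genes called (14.5% higher and 19.9% lower), and 2 did not overlap (47.6% of all genes). In Olfr73 against Olfr160, Robo2 alone was called, as higher (17.9% of all genes were called, 7.45% higher), and 2 did not overlap (41% of all genes). Over the 3 groups jointly, Robo2 (edgeR adjusted p = 2.78e-05), Slit1 (0.00089) and Slit2 (0.0135) passed and Robo1 did not (0.0567), with 50.8% of all genes passing. The comparisons share groups of libraries and are not independent of each other.

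Genes whose profile over the 9 libraries was most like that of a Robo or Slit gene were ranked by the root mean square difference of centred log2 CPM. For Robo2, whose own log2 range was 6.65, they were Atp2b4, a plasma membrane calcium pump (0.31), Mlip, which encodes a lamin-interacting protein (0.41), Dync1i1, a dynein intermediate chain (0.42), Bmp3, a secreted signalling protein (0.53), and C1qtnf1, a secreted C1q-domain protein (0.55). Atp2b4 measured 28.3 ± 2.64, 8.65 ± 1.54 and 0.356 ± 0.098 CPM (SD, n = 3) in Olfr73, Olfr160 and Olfr1507 neurons. On log2(TPM + 1) 0 of these 5 were among the 5 nearest. For Slit1 the nearest were Vopp1 (0.20), Brdt (0.22) and Mmp16 (0.24), and for Slit2 they were F2r, a thrombin receptor (0.51), Naprt (0.55) and Lurap1 (0.62). F2r showed the order of Slit2, with 23.0 ± 4.68, 6.46 ± 4.61 and 0.98 ± 0.491 CPM (SD, n = 3) in Olfr160, Olfr73 and Olfr1507 neurons. For Robo1, with a log2 range of only 0.99, the nearest were Prpf19, Zfp507 and Mgrn1, each at 0.11.

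Other proteins bind or work with Robo and Slit, and 47 genes in 4 lists of such roles were followed, of which 45 were tested. In Olfr1507 against Olfr160, 11 were higher, 13 lower and 21 not called (53.3% called, against 48.4% of all genes). In Olfr1507 against Olfr73, 10 were higher, 10 lower and 25 not called (44.4%, against 34.4%). In Olfr73 against Olfr160, 8 were higher, 8 lower and 29 not called (35.6%, against 17.9%). Their median log2 fold changes were -0.07, -0.08 and -0.12, against -0.14, -0.15 and -0.01 over all tested genes. The number of higher calls depended on scale, at 0, 4 and 1 relative to the transduction genes and 5, 5 and 8 by library size alone. Single libraries mattered too: the higher calls in Olfr1507 against Olfr73 were 4 without Olfr1507 library 1 and 6 without library 3. In Olfr73 against Olfr160 the calls higher and lower were 1 and 3 without Olfr160 library 2, 4 and 4 without Olfr160 library 1, 4 and 5 without Olfr73 library 2. They were 3 higher without Olfr73 library 3 and 5 lower without Olfr73 library 1.

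Among receptors and ligands that work with Robo and Slit, 4 of 6 tested genes were lower and 0 higher in Olfr1507 than in Olfr160 neurons (66.7% called, against 48.4% of all tested genes). In Olfr1507 against Olfr73, 3 were lower and 1 higher (66.7%, against 34.4%), and in Olfr73 against Olfr160, 1 was higher and 1 lower (33.3%, against 17.9%). Plxna1, a plexin that can bind a Slit fragment, measured 302, 408 and 353 CPM in Olfr73 libraries, 107, 145 and 154 in Olfr160 libraries and 41.9, 41.4 and 41.5 in Olfr1507 libraries. It had the order of Robo2 and separated all 3 groups (log2 fold changes -3.09, -1.70 and 1.39; edgeR adjusted p = 6.96e-06, 5.14e-05 and 0.00229 for Olfr1507 against Olfr73, Olfr1507 against Olfr160 and Olfr73 against Olfr160). Flrt3, a membrane protein that binds Robo1, was 0.54 to 1.84 CPM in Olfr1507 libraries, 14.8 to 21.4 in Olfr73 libraries and 20.1 to 35.97 in Olfr160 libraries, so the last 2 groups overlapped. Nell2, a secreted ligand of Robo3, was 15.4, 9.01 and 18.1 CPM in Olfr1507 libraries and 0, 2.81 and 0.466 in Olfr73 libraries (3.70, edgeR adjusted p = 0.0241). That call was lost without Olfr1507 library 1 or 3 or Olfr73 library 3 (adjusted p 0.055 to 0.0689). Dcc, a netrin receptor that Robo can silence, was at 0 in Olfr1507 neurons, with 131 summed counts in the Olfr160 group and 1 in the Olfr73 group, a ratio of 126 (95% counting interval 22.3 to 5020); without Olfr160 library 2 the call against Olfr73 was lost (edgeR adjusted p = 0.0598). Ntn1, the netrin ligand, had at most 12 counts in an Olfr1507 library, against 38 to 193 in the others. Dcc and Ntn1 were highest in Olfr160 neurons, where the sustentacular, stroma and vessel markers were also highest. Robo4, the vascular family member, was untested, with 39 counts in Olfr160 and 0 in the other groups; the part of these other cells in Dcc, Ntn1 and Robo4 was not tested.

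Heparan sulfate chains on core proteins hold Slit and Robo together. Of 11 genes of cores and synthesis, 4 were higher and 3 lower in Olfr1507 against Olfr160 (63.6% called, against 48.4% of all tested genes). In Olfr1507 against Olfr73 it was 2 and 2 (36.4%, close to the 34.4% of all genes), and in Olfr73 against Olfr160 2 and 1 (27.3%, against 17.9%). Gpc1, a glypican core protein that binds Slit, fell in Olfr1507 neurons to 1.35, 0.925 and 1.51 CPM, from 18.1, 10.96 and 12.9 in Olfr73 and 14.9, 14.4 and 16.3 in Olfr160 libraries (log2 -3.48 and -3.60; edgeR adjusted p = 7.29e-05 and 2.84e-05). Hs6st1, which sulfates the chains, was 80.8, 72.5 and 55.3 CPM in Olfr1507 libraries and 14.7 to 20.3 in the other 6 (1.88 over Olfr73 and 1.95 over Olfr160; edgeR adjusted p = 0.000134 and 4.69e-05). Relative to the transduction genes Hs6st1 was higher than in Olfr160 by 0.41 (adjusted p = 0.0779). Sdc4, a syndecan core, was 181, 155 and 96.6 CPM in Olfr160 libraries, 24.8, 16.9 and 8.57 in Olfr73 libraries and 1.13 to 1.95 in Olfr1507 libraries, the order of the sustentacular markers. The part of other cells in Sdc4 was not tested.

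**Figure D4:**
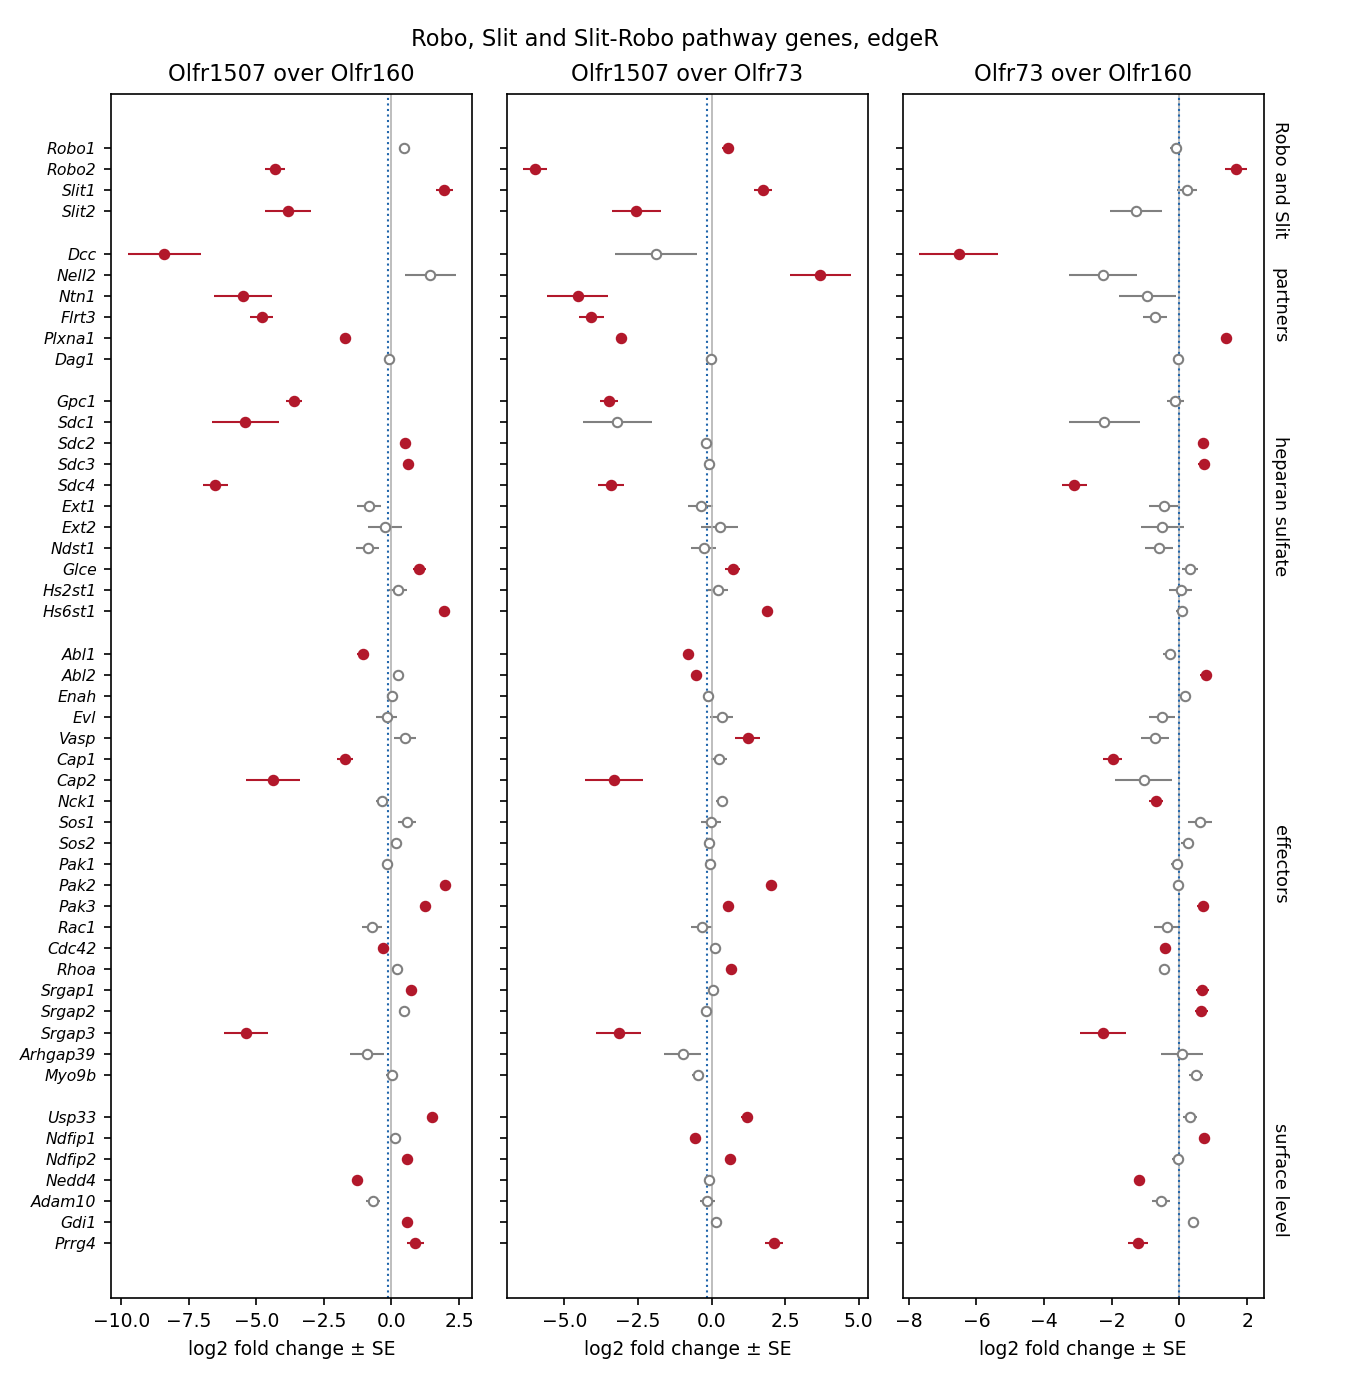
Log2 fold change with its standard error (edgeR) of the 4 tested Robo and Slit genes and the 45 tested genes of the role lists in the 3 comparisons; filled red points passed an adjusted p of 0.05 and open points did not, and the dotted line is the median of all 16399 tested genes. Plxna1 follows the order of Robo2 in all panels, and most effector genes lie near the dotted line.

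Effectors inside the cell pass the Robo signal to actin. Of 21 tested, 3 were higher and 5 lower in Olfr1507 against Olfr160, and 4 and 4 in each of the other 2 comparisons. That is 38.1% called each time, against 48.4% of all tested genes in Olfr1507 against Olfr160, 34.4% in Olfr1507 against Olfr73 and 17.9% in Olfr73 against Olfr160. The Srgap proteins, which bind the inner part of Robo, did not move as a group. Srgap3 was 31.7, 27.1 and 18.1 CPM in Olfr160 libraries, 6.65, 8.62 and 0.885 in Olfr73 libraries and 0.33 to 1.03 in Olfr1507 libraries (-5.40 for Olfr1507 against Olfr160, edgeR adjusted p = 0.00071). Olfr73 library 3 was low in Srgap3 as it was in Slit2 and in the sustentacular, stroma and vessel markers, whose order of groups Srgap3 shared; their part was not tested. Srgap1 measured 43.2 CPM in Olfr1507, 41.3 in Olfr73 and 25.9 in Olfr160 neurons, and Srgap2 57.8, 65.6 and 41.9 in the same order, all group means; relative to the transduction genes the Srgap1 difference of Olfr1507 from Olfr160 changed sign (0.74 to -0.79). In Olfr73 against Olfr160, Srgap1 (0.68), Srgap2 (0.65) and Srgap3 (-2.25) passed narrowly (edgeR adjusted p = 0.0341, 0.0419 and 0.048) and none did with only the 6 libraries compared (0.0744 to 0.0847). Pak2, a kinase that acts on actin, was 94.3, 91.7 and 88.0 CPM in Olfr1507 libraries and 20.6 to 26.6 in the other 6 (1.98 over Olfr160 and 2.02 over Olfr73; edgeR adjusted p = 1.32e-05 and 2.32e-05), and relative to the transduction genes it exceeded Olfr160 by 0.40 (adjusted p = 0.126). Enah, an actin-elongating target of Robo signalling, did not pass in any comparison, with group means of 161, 145 and 148 CPM in Olfr73, Olfr160 and Olfr1507 neurons. Cap1, a cyclase-associated actin regulator, was 174 to 362 CPM in Olfr160 libraries and 51.3 to 96.8 in the other 6.

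Robo at the cell surface is set by sorting, cleavage and turnover. Of 7 such genes, 4 were higher and 1 lower in Olfr1507 against Olfr160 (71.4% called, against 48.4% of all tested genes). In Olfr1507 against Olfr73 it was 3 and 1 (57.1%, against 34.4%), and in Olfr73 against Olfr160 1 and 2 (42.9%, against 17.9%). Usp33, a deubiquitinase that binds Robo1, was 210, 209 and 167 CPM in Olfr1507 libraries, 88.3, 96.7 and 72.3 in Olfr73 libraries and 50.9, 67.9 and 88.0 in Olfr160 libraries. It rose by 1.50 over Olfr160 and 1.19 over Olfr73 on the log2 scale (edgeR adjusted p = 0.000392 and 0.00239), but relative to the transduction genes the differences were -0.0029 and 0.30 and neither passed (adjusted p = 0.986 and 0.112). Nedd4, a ubiquitin ligase, was 418 to 623 CPM in Olfr160 libraries and 190 to 266 in the other 6. Ndfip1, the adaptor that brings Robo to Nedd4-type ligases, was higher in Olfr73 than in Olfr160 neurons (0.71, edgeR adjusted p = 0.0143; 0.03 relative to the transduction genes, and adjusted p = 0.0649 without Olfr160 library 2). Adam10, a protease whose fly counterpart cleaves Robo, did not pass in any comparison, with group means of 19.2 to 30.9 CPM.

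Of 5 genes that mark position in the epithelium or guide axons by it, 1 was higher and 2 lower in Olfr1507 against Olfr160 (60% called, against 48.4% of all tested genes), 2 and 2 in Olfr1507 against Olfr73 (80%, against 34.4%), and 1 and 2 in Olfr73 against Olfr160 (60%, against 17.9%). Acsm4, a dorsal marker, had group means of 1434, 402 and 5.74 CPM in Olfr73, Olfr160 and Olfr1507 neurons, the order of Robo2. Nqo1, also dorsal, had 811, 731 and 4.19 CPM, and its Olfr73 and Olfr160 libraries overlapped. Nrp2, the semaphorin receptor of ventral axons, had the reverse order at 7.59, 29.3 and 134 CPM; relative to the transduction genes its difference of Olfr1507 from Olfr160 was 0.61 in place of 2.19 (edgeR adjusted p = 0.113). Ncam2, an adhesion molecule of ventral axons, had 6.36, 17.6 and 33.4 CPM; it did not pass in Olfr1507 against Olfr160 (edgeR adjusted p = 0.0688), and its call in Olfr73 against Olfr160 (-1.47, adjusted p = 0.0323) was lost with only the 6 libraries compared (0.0851) and without any of 5 libraries, Olfr73 1 and 3, Olfr160 1 and 2 and Olfr1507 3 (0.051 to 0.121). Sema3f, a secreted repellent of Nrp2-bearing axons, passed in no comparison, at 0.694, 0.825 and 0.324 CPM (edgeR adjusted p = 0.226 to 0.868).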

How the data were processed

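RNA of sorted olfactory neurons was sequenced in 9 libraries, 3 per tagged receptor. Expected counts and TPM per gene were deposited by the authors; per the submitters' processing notes, mm10, STAR 2.6.1, RSEM 1.3.1 and DESeq2 were used. The gene annotation and any strand setting are not given in the sources used here. Expected counts (13.4% to 14.4% of values above 0 were not whole) were rounded, filtered with filterByExpr, scaled by TMM and fitted over all 9 libraries with edgeR 4.0.16 (quasi-likelihood, robust) in R 4.3.3; adjusted p under 0.05 was called. The fit was also run on counts simulated from its own model, which cannot show how it handles libraries of differing make-up. TPM was used for shares, percentiles, comparisons between genes, scaling to Omp, Robo1 values beside its CPM, implied transcript lengths and the alternatives on log2 TPM. Shares were compared by exact permutation with scipy 1.17.1. Alternatives were other scalings and filters, DESeq2 1.42.0, limma 3.58.1 on log2(TPM + 1) and log2(TPM + 0.1), a replicate block, only the 6 libraries compared, and each library left out. The 6 genes, the role lists and the marker lists were chosen with earlier results of these data known. Pathway genes named are up to 4 per list, direction and comparison with the lowest adjusted p, besides a set list that includes Robo4, Dcc, Nell2 and the Srgap genes. Enah, Adam10, Rbm11 and the gene models near Robo2 fall outside that rule and were chosen after their values were seen. Like profiles were sought among tested genes of at least 5 CPM on average, leaving out odorant receptors and unnamed models. Coordinates are from GENCODE M21 and promoters from RefSeq GRCm38.p6, 1-based. Counting intervals and floors cover counting error only.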

Additional observations from a re-analysis of the deposited data

How the results depend on the processing

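The Robo2 differences, and that of Slit2 in Olfr1507 against Olfr160, kept direction and call under all alternatives run; for Robo2 they were log2 -4.80 to -4.03, -6.47 to -5.78 and 1.45 to 1.95 with 1 library left out for Olfr1507 against Olfr160, Olfr1507 against Olfr73 and Olfr73 against Olfr160. Relative to the transduction genes (median over all genes -1.72, -1.04 and -0.70 in that order, against -0.14, -0.15 and -0.01), Robo2 was -5.82, -6.89 and 1.08, Robo1 was -1.11, -0.35 and -0.77 (edgeR adjusted p = 0.0348 for the last), and Slit1 was 0.45, 0.86 and -0.41. Slit2 in Olfr1507 against Olfr160 ran from -5.48 on that scale to -2.24 on log2(TPM + 1). Robo1 in Olfr1507 against Olfr160 was -0.11 and -0.12 on TPM with pseudocounts of 1 and 0.1, and 0.34 to 0.61 with 1 library left out; without Olfr1507 library 3 it passed (adjusted p = 0.0245). Robo1 in Olfr1507 against Olfr73 no longer passed with RLE scaling (0.52), library size alone (0.23), a minimum of 5 CPM in 3 libraries (0.46), TPM (0.27 and 0.31), the replicate block (0.54) or only the 6 libraries (0.50), and ranged from 0.44 to 0.70 with 1 left out. Slit2 in Olfr1507 against Olfr73 no longer passed with no filter (-2.53), on TPM (-1.13 and -2.09) or with the replicate block (-2.27), and ranged from -3.21 to -2.01. In Olfr73 against Olfr160, with 1 library left out, Robo1 ranged from -0.24 to 0.018, Slit1 from -0.13 to 0.36 and Slit2 from -1.81 to -0.74. Role-list genes called higher in Olfr1507 than in Olfr160 were 5 by library size alone, 0 relative to the transduction genes and 6 on TPM with either pseudocount, against 11; lower ones were 21 and 39 under the first 2 of these, against 13. In Olfr1507 against Olfr73, 5, 4, 6 and 6 were higher under the same settings (4 to 10 with 1 left out, against 10) and 28 lower relative to the transduction genes (against 10). In Olfr73 against Olfr160, 1 was higher and 17 lower relative to those genes, and 3 and 4 with only the 6 libraries, against 8 each (1 to 7 and 3 to 7 with 1 left out). Over all genes, library size alone moved the split of Olfr1507 against Olfr160 from 3399 higher and 4540 lower to 1343 and 6262, and that of Olfr1507 against Olfr73 from 2379 and 3261 to 1047 and 4706. The cause of these shifts was not tested.

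Replicate numbers were not treated as pairs in the main fit. Deviations of same-numbered libraries correlated at -0.18 to 0.13, and not each library correlated best with its own number. With 3 libraries per group such correlations cannot settle whether same-numbered libraries shared a batch, and the labels do not say. The replicate block ended only the 2 calls given above among the Robo and Slit genes. The filter on low counts left Robo3 and Slit3 untested, and 3 libraries against 3 cannot bring the exact test of the Robo2 share below 0.1.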
